A study of Mus musculus with 12 samples.

Results

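The 53 genes described here promote or restrain the cell cycle and DNA replication. They were examined in NSC-34 cells, a mouse line made by fusing embryonic motor neurons with a neuroblastoma. They were chosen by name, as the cyclins of the D, E, A and B types, the cyclin-dependent kinases and their inhibitors, the pocket proteins and E2F factors, the genes of origin licensing, of the replication fork and of nucleotide supply, the genes of mitosis, and 4 transcription factors. Earlier results of these data were known when the choice was made. Every probe annotated to these symbols was read, which gave 111 probes for 51 of the 53 genes. Of these, 45 genes had at least 1 probe above background on at least 4 of the 12 arrays, so that 45 of 11478 genes tested, out of 19057 annotated, belong to this set.

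The study compared 3 stable NSC-34 lines, with 4 arrays each. The line called shPGRN carries a short hairpin RNA against mouse progranulin (PGRN, gene Grn), a secreted growth factor, and was selected with puromycin. The line called hPGRN carries a plasmid for human PGRN and was selected with G418. The third line, named Control in the labels, carries a vector with no insert, and the sources used here do not say which vector and drug it had on these arrays. All cells were stepped down from 10% to 5% and then 1% serum, and RNA was taken after 24 h in 1% serum and hybridized to Illumina mouse whole-genome BeadChips. The 4 arrays of a line are sub-cultures of 1 transfected population, so p-values measure the spread between sub-cultures, and a difference between lines cannot be told apart from a difference in vector, drug or transfected population.

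Progress from G1 into S phase depends on cyclin D with Cdk4 or Cdk6 and cyclin E with Cdk2, which phosphorylate the retinoblastoma (pocket) proteins and release E2F factors from them. E2F factors drive the genes that load the Mcm helicase onto replication origins and that supply nucleotides, while mitotic genes are switched on later by Mybl2 and Foxm1. In quiescence and G1 the DREAM complex, built on pocket proteins and E2f4, represses cell cycle genes. Serum withdrawal lowers cyclin D in many cultured cells, and neurons leave the cycle for good when they differentiate.

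Replicate arrays of a line were close, with correlations of 0.988 to 0.996 over the genes tested, and each array had between 19535 and 20119 probes above background. Grn itself had an intensity of 612 ± 74.1 (SD, n = 4, as for all means below) in shPGRN, 1048 ± 158 in hPGRN and 887 ± 55.2 in Control cells. It fell in shPGRN against Control cells by 0.49 on the log2 scale (adjusted p = 0.00251, limma with Benjamini-Hochberg adjustment over all genes tested). The sources used here do not say whether this mouse probe reads the human transgene. Of 10 neuron and motor neuron markers, 4 were above background (Isl1, Nefm, Slc18a3 and Lhx3, the last at no more than 17.5 on average in any line), while Chat, Mnx1, Nefl, Tubb3 and Snap25 were not and Nefh had no annotated probe. The sympathetic neuroblastoma markers Phox2a, Gata2, Gata3 and Hand2 were all measured. Markers of 1 list moved in both directions. Isl1 averaged 1550, 2242 and 1063 in shPGRN, hPGRN and Control cells, while Slc18a3, near background, averaged 0.714, 17.9 and 31.6. Phox2a averaged 3337, 4621 and 4835 and Gata2 886, 1821 and 1582, while Gata3 averaged 209, 196 and 124. Against Control cells, Isl1 and Gata3 were called higher and Slc18a3, Phox2a and Gata2 lower in shPGRN cells, and the part of these markers in the differences below was not tested. Of the markers of fibroblasts, glia and macrophages, 5 were measured, at line means of 12.0 to 18.0 (Col1a2), 126 to 155 (Pdgfra), 41.8 to 63.0 (Mbp), 16.6 to 22.9 (Csf1r) and 13.6 to 20.4 (Aif1), and none was called in any comparison. Col1a1, Sox10 and Olig2 were above background on 0 of 12 arrays. Intensities are on the linear scale of the deposited table, on which the background limit lay between 11.3 and 12.3. Differences are on the log2 scale after addition of an offset of 50, so the change of dim genes is understated.

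Of the 45 members tested, 12 (26.7%) passed an adjusted p of 0.05 between shPGRN and Control cells, beside 13.8% of all 11478 genes. Of these, 4 were higher in shPGRN cells (Ccnd3, Cdk2, Cdk4 and Tk1) and 8 were lower (Ccnd1, Ccne1, Ccne2, Cdkn2d, Rb1, Mcm5, Mcm6 and Mcm7), where 7.15% of all genes were called higher and 6.68% lower. In bulk RNA, fewer cells in a phase of the cycle and less RNA per cell cannot be told apart. The count of 12 fell to 6 without shPGRN replicate 3, to 6 without Control replicate 3 and to 7 without shPGRN replicate 1. Between hPGRN and Control cells only Mcm6 and Rrm2 passed, both lower, which is 4.44% of the members beside 6.78% of all genes (3.63% higher and 3.15% lower). Between shPGRN and hPGRN cells 7 members (15.6%) passed, beside 13.4% of all genes (6.56% higher and 6.88% lower). Cdk2, Rrm2 and Tk1 were higher in shPGRN cells and Ccnd1, Cdkn2d, Rb1 and Mcm5 were lower. This count of 7 fell to 4 without shPGRN replicate 2, shPGRN replicate 3 or hPGRN replicate 4, and to 3 without shPGRN replicate 4 or hPGRN replicate 3. Arrays of the lines did not overlap for 9 members (20.0%, beside 17.8% of all genes), 3 members (6.67%, beside 12.7%) and 8 members (17.8%, beside 18.9%) in the 3 comparisons. A call with a fitted difference of at least 1.5-fold (after the offset, on the probe that stands for the gene) was made for 0, 0 and 1 of the members, beside 2.42%, 1% and 2.38% of all genes. The median log2 difference of the members was -0.07, -0.04 and -0.03 in the 3 comparisons, where the median of all genes was 0.00 in each. Any 2 of the comparisons share the arrays of 1 line, and the first 2 share the Control arrays. In all, 13 members passed in at least 1 comparison and 32 in none. The shares of members and of all genes were not matched for brightness. Of the 45 members, 42 were above background on all 12 arrays, beside 8085 of the 11478 genes. With only such probes kept, 12, 3 and 7 members were called in the 3 comparisons, beside 1767, 927 and 1691 of all genes. The members were also chosen with earlier results of these data known, so their shares are not those of an independent set.

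**Figure D1:**
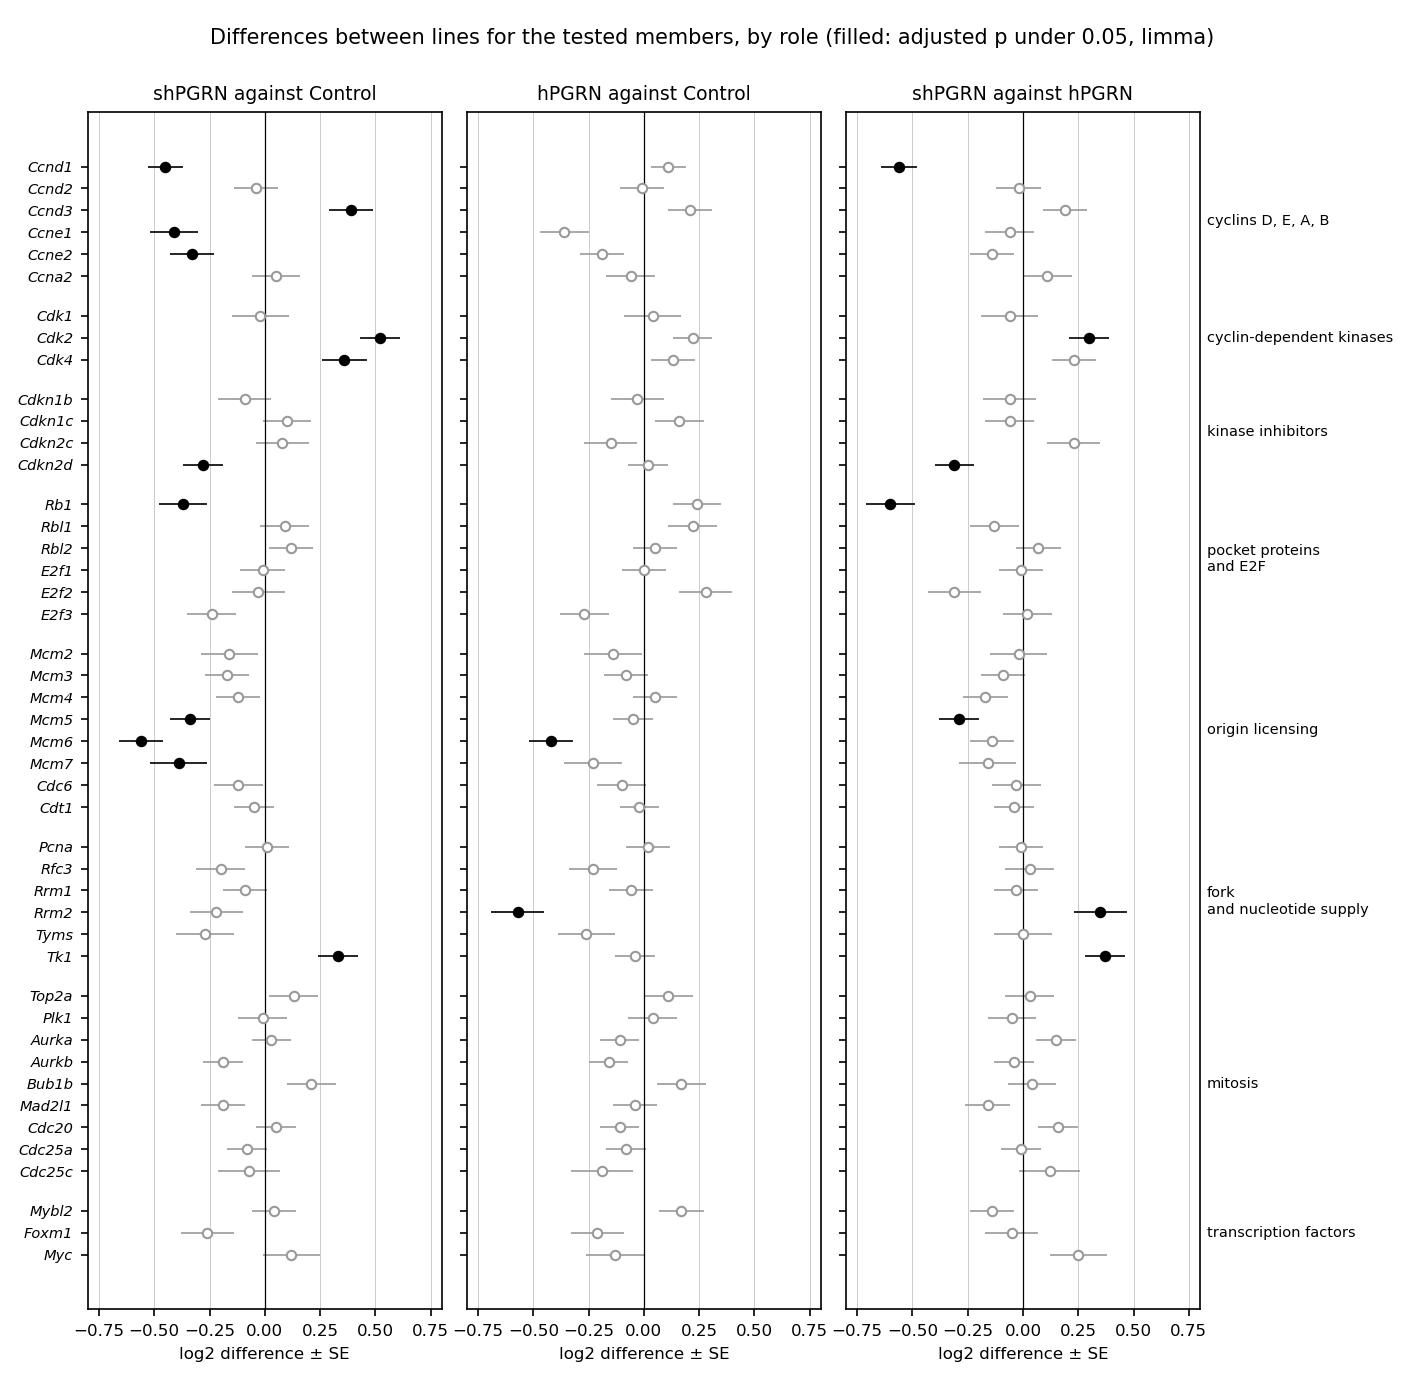
Log2 difference (points) with its standard error (bars) for the 45 members tested, grouped by role, in each of the 3 comparisons of lines. Filled points passed an adjusted p of 0.05. The filled points lie among the G1 cyclins and kinases, Cdkn2d, Rb1, the Mcm genes, Rrm2 and Tk1, and the rows of mitosis genes and transcription factors hold none.

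The D-type cyclins, which activate Cdk4 and Cdk6 in response to growth signals, moved apart from each other. Ccnd1 encodes cyclin D1. Its intensity was 11767, 10158, 11181 and 10958 on the 4 shPGRN arrays, 16005, 16688, 16005 and 16496 on the hPGRN arrays, and 14879, 15607, 15049 and 14800 on the Control arrays. Every shPGRN array lay below every array of the other lines, and the hPGRN arrays lay above the Control arrays without overlap. Ccnd1 was lower in shPGRN than in Control cells by 0.45 ± 0.08 on the log2 scale (SE; 1.37-fold, adjusted p = 0.000592) and lower than in hPGRN cells by 0.56 ± 0.08 (1.48-fold, adjusted p = 5.83e-05). The difference of 0.11 between hPGRN and Control cells did not pass (adjusted p = 0.511). All 3 Ccnd1 probes passed in both comparisons of shPGRN cells.

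Ccnd3, cyclin D3, went the other way. It read 801, 922, 834 and 770 in shPGRN cells, 849, 751, 715 and 587 in hPGRN cells and 611, 580, 641 and 626 in Control cells. All shPGRN arrays were above all Control arrays, and the hPGRN arrays overlapped both. The rise over Control cells was 0.39 ± 0.10 (1.31-fold, adjusted p = 0.00897). A second, dimmer Ccnd3 probe with a mean of 76.2 showed a difference of -0.04 in the same comparison, and the call was lost when the probes of a gene were averaged (adjusted p = 0.187). Ccnd2, cyclin D2, was dim, at 85.2 ± 10.4, 87.4 ± 5.34 and 89.7 ± 19.5 in shPGRN, hPGRN and Control cells, and passed in no comparison.

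Both E-type cyclins, which pair with Cdk2 at the start of S phase, were lower in shPGRN cells than in Control cells. Ccne1 read 58.4, 33.0, 58.9 and 56.8 in shPGRN cells, 88.8, 54.4, 52.3 and 34.6 in hPGRN cells and 86.0, 108, 84.3 and 90.8 in Control cells. The shPGRN and Control arrays did not overlap, whereas a single hPGRN array reached the Control range. The fall of Ccne1 in shPGRN cells was 0.41 ± 0.11 (1.33-fold, adjusted p = 0.0147), and the call was lost without shPGRN replicate 2 (adjusted p = 0.0617). Ccne2 read 207, 218, 197 and 254 in shPGRN cells, 314, 204, 245 and 242 in hPGRN cells and 267, 308, 301 and 299 in Control cells. Again the shPGRN and Control arrays were apart and the hPGRN arrays overlapped both. Ccne2 fell by 0.33 ± 0.10 (1.26-fold, adjusted p = 0.0301), a call that was lost without any of 6 arrays (shPGRN replicates 1, 2 and 3 and Control replicates 2, 3 and 4), at adjusted p-values of 0.0563 to 0.0918. The 2 genes did not pass between hPGRN and Control cells, with differences of -0.36 ± 0.11 for Ccne1 (adjusted p = 0.0569) and -0.19 ± 0.10 for Ccne2 (0.316). Ccne1 did pass there with array weights and with only probes above background on all 12 arrays. It also passed without shPGRN replicate 2 or hPGRN replicate 1. Between the modified lines Ccne1 differed by -0.06 (adjusted p = 0.811). Ccna2, cyclin A2 of S and G2 phase, was above background on 6 of 12 arrays only, at 14.2 ± 13.5, 7.35 ± 6.29 and 10.6 ± 6.13. Ccnb2, a mitotic cyclin, was above background on 0 arrays, and Ccnb1 had no annotated probe.

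Cdk2, the kinase of S phase entry, had the largest rise in shPGRN against Control cells among the probes that stand for the members. Its intensity was 2455, 2616, 2626 and 2502 in shPGRN cells, 2118, 1995, 1981 and 2165 in hPGRN cells and 1651, 2076, 1706 and 1647 in Control cells. shPGRN arrays stood above all others, and the Control arrays were the lowest except for replicate 2, which lay within the hPGRN range. Cdk2 was higher than in Control cells by 0.52 ± 0.09 (1.43-fold, adjusted p = 0.00039), and each of its 4 probes passed there, with differences of 0.52 to 0.55. Against hPGRN cells the rise was 0.30 ± 0.09 (1.23-fold, adjusted p = 0.0322), and this call was lost without shPGRN replicate 2, 3 or 4 or hPGRN replicate 2 or 3 (adjusted p = 0.0515 to 0.0843).

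Cdk4, the partner of the D-type cyclins, averaged 4841 ± 341 in shPGRN cells, 4102 ± 99.4 in hPGRN cells and 3783 ± 580 in Control cells. Its arrays overlapped between shPGRN and Control cells. The rise of 0.36 ± 0.10 passed (1.28-fold, adjusted p = 0.018) but was lost without shPGRN replicate 1 or 3 or Control replicate 2 or 3 (adjusted p = 0.0506 to 0.0692). Cdk1, the kinase of mitotic entry, was bright and close in the 3 lines, at 2066 ± 366, 2150 ± 335 and 2097 ± 383, and passed in no comparison. Cdk6 was above background on 2 arrays only and was not tested.

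Among the inhibitors, Cdkn2d (p19, which blocks Cdk4 and Cdk6) was lower in shPGRN cells. It read 225, 253, 232 and 238 in shPGRN cells, 291, 333, 318 and 299 in hPGRN cells and 340, 247, 297 and 339 in Control cells. The shPGRN arrays lay below all hPGRN arrays and overlapped with Control replicate 2. Cdkn2d was lower than in hPGRN cells by 0.31 ± 0.09 (1.24-fold, adjusted p = 0.0319) and lower than in Control cells by 0.28 ± 0.09 (1.22-fold, adjusted p = 0.0474). The first call was lost without shPGRN replicate 1, 3 or 4 or hPGRN replicate 2, 3 or 4 (adjusted p = 0.0555 to 0.0956), and the second without any single array other than Control replicate 2 (adjusted p = 0.0518 to 0.138). Cdkn1b (p27) and Cdkn1c (p57), which bind Cdk2 complexes, and Cdkn2c (p18) passed in no comparison, with differences between -0.15 and 0.23.

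Rb1, the retinoblastoma gene and brake on E2F, had the largest difference between shPGRN and hPGRN cells among the probes that stand for the members. It read 86.9, 68.4, 80.1 and 121 in shPGRN cells, 165, 171, 152 and 200 in hPGRN cells and 134, 133, 166 and 108 in Control cells. The 2 modified lines did not overlap, and the Control arrays overlapped with each of them. Rb1 was lower in shPGRN than in hPGRN cells by 0.60 ± 0.11 (1.52-fold, adjusted p = 0.000426), the only member difference on such a probe that passed and reached 1.5-fold in the fit, where the offset lowers the folds of dim genes. A dimmer Rb1 probe passed in the same comparison with a difference of -0.37. The fall against Control cells, 0.37 ± 0.11 (1.29-fold, adjusted p = 0.0242), was lost without shPGRN replicate 1, 2 or 3 or Control replicate 3 (adjusted p = 0.0539 to 0.0971). The related pocket protein Rbl1 (p107) did not pass, at 123 ± 22.9, 142 ± 28.4 and 111 ± 15.8, and Rbl2 (p130) was near background, on 5 of 12 arrays above it. Of the activating E2F factors, E2f1 was level at 1263 ± 83.3, 1273 ± 96.2 and 1280 ± 154, and neither E2f2 nor E2f3 passed. The largest E2f2 difference was -0.31 between shPGRN and hPGRN cells (adjusted p = 0.104).

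**Figure D2:**
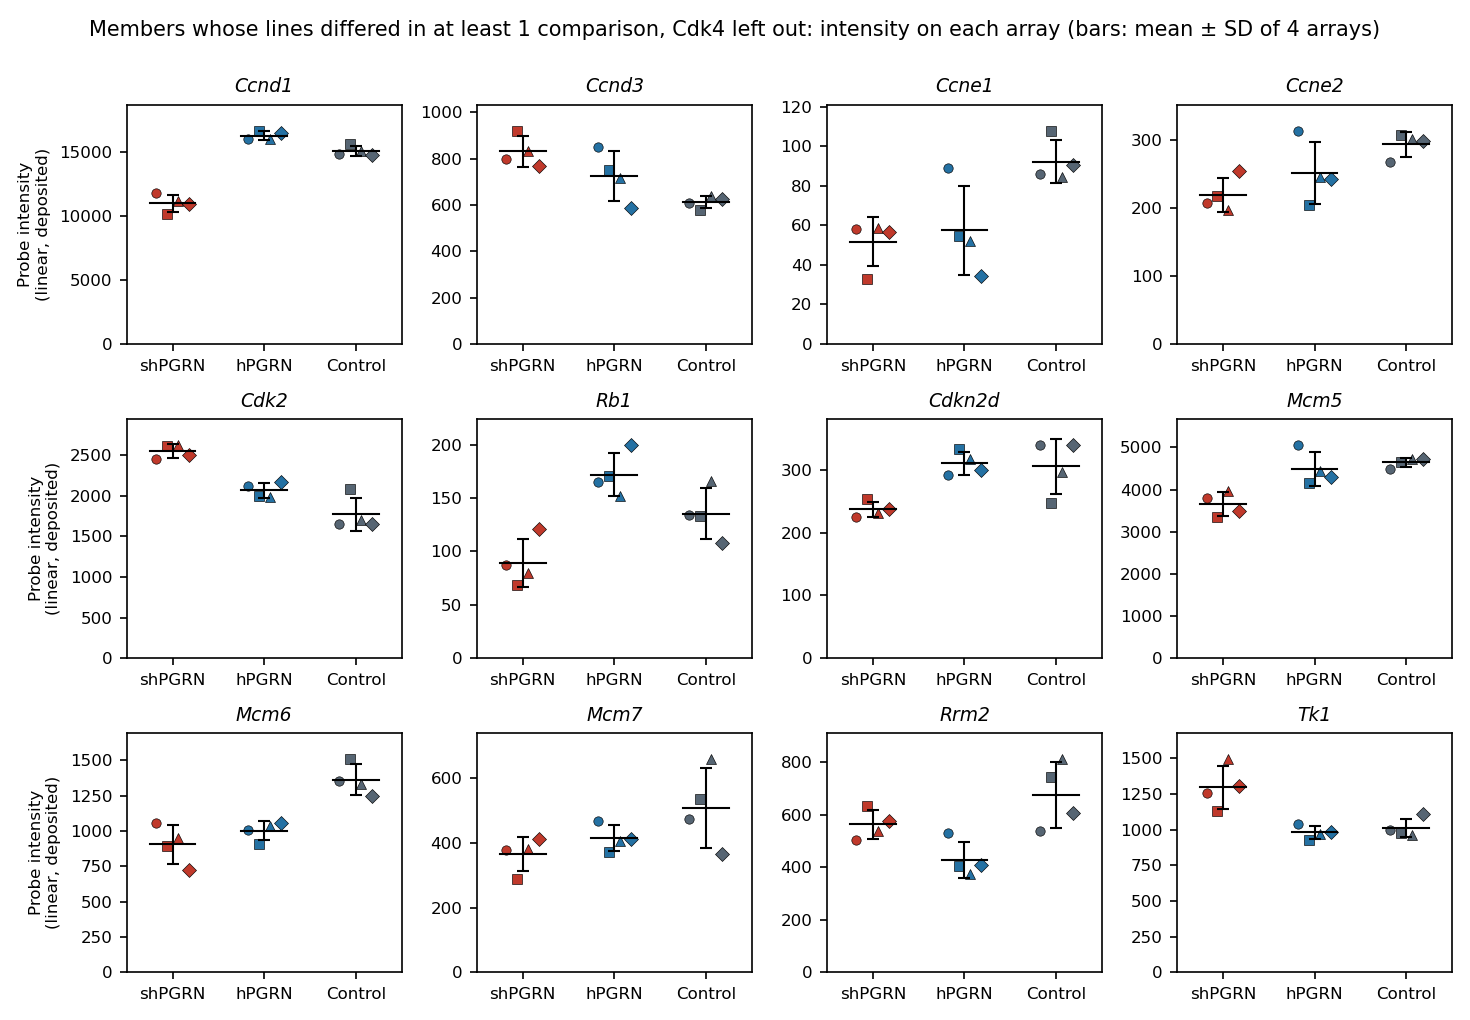
Intensity on each array (linear scale of the deposited table, axes from 0) for 12 of the 13 members that passed in at least 1 comparison, by line; marker shapes give replicates 1 (circle), 2 (square), 3 (triangle) and 4 (diamond), and black bars the mean ± SD of 4 arrays. Ccnd1 and Rb1 are lowest in shPGRN cells, Cdk2 and Tk1 are highest there, and Mcm6 is highest in Control cells, where its 4 arrays lie between 1246 and 1511.

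The genes of origin licensing were the group in which every tested member had a negative difference in shPGRN cells. Mcm2 to Mcm7 encode the subunits of the replicative helicase, and Cdc6 and Cdt1 load it onto origins. Of the 8 tested, 3 fell against Control cells (Mcm5, Mcm6 and Mcm7), and the group's differences ran from -0.56 (Mcm6) to -0.05 (Cdt1), with a median of -0.17. Over all genes 6.68% were called lower in this comparison, and the group was not tested as a set. Against hPGRN cells the 8 ran from -0.29 (Mcm5) to -0.02 (Mcm2), with Mcm5 alone passing. Between hPGRN and Control cells 7 of 8 were negative and Mcm6 passed.

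The E2F motif was searched in the promoters of the members because the licensing genes are textbook E2F targets. The windows run from 250 bases before to 50 after a gene's start in RefSeq (GRCm38.p6), and 46 windows of 41 members were found among 32851 windows of all genes. The letters TTTCGCG or TTTGGCG, on either strand, occurred in 30.4% of the member windows and in 2.37% of all windows. The CCAAT box occurred in 65.2% and 37.4%, the TTTGAA core of the cell cycle homology element of mitotic genes in 28.3% and 17.9%, and the Myc E-box CACGTG in 10.9% and 7.15%. The members were chosen as cell cycle genes, so these shares describe the list and not the lines. All 3 Mcm genes that fell hold the E2F letters. They are shown with E2F letters and CCAAT, on either strand, in capitals, with bases counted from the start that the promoter table uses. For Mcm6 these are the 250 bases before the start, at chr1:128359706-128359955 (minus strand). The gene record of Mcm5 begins 41 bases before the start in the table, so its stretch of 209 bases ends there, at chr8:75109259-75109467 (plus strand). The table holds 2 windows for Mcm7, and the 30 bases shown, at chr5:138171847-138171876 (minus strand), come from the one with the E2F letters, whose start lies 228 bases inside the gene record.
Mcm6: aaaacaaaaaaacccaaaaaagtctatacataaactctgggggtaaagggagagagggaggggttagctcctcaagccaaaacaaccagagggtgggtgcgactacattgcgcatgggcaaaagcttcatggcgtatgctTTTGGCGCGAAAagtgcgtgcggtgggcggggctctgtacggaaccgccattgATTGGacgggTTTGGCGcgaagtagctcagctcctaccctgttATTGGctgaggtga
Mcm5: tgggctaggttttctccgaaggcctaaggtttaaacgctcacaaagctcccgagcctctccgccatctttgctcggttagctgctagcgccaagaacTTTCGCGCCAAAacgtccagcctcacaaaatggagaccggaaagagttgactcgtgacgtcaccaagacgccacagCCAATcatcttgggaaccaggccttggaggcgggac
Mcm7: gtgacgacgTTTCGCGCCAATttcggttgg
In Mcm6 and Mcm5 the first capital run holds an E2F match on each strand, which overlap, and Mcm6 has another E2F match at base -47 counted from the start. In Mcm7 the E2F letters run straight into a CCAAT box. The windows of Mcm2 and of Cdc6 do not hold these letters, and those of Mcm3 and Cdt1, which did not pass, do, so a match went with both outcomes.

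Mcm6 had the largest differences of the group against Control cells. Its intensity was 1054, 898, 948 and 725 in shPGRN cells, 1009, 908, 1033 and 1061 in hPGRN cells and 1358, 1511, 1336 and 1246 in Control cells. Both modified lines lay below Control cells on every array and overlapped with each other. The fall was 0.56 ± 0.10 in shPGRN cells (1.47-fold, adjusted p = 0.000576) and 0.42 ± 0.10 in hPGRN cells (1.33-fold, adjusted p = 0.0148), and the second was lost without hPGRN replicate 2 (adjusted p = 0.0625). All 3 Mcm6 probes above background passed in shPGRN cells, and 2 of 3 passed in hPGRN cells. The modified lines differed from each other by -0.14 (adjusted p = 0.412).

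Mcm5 read 3812, 3348, 3967 and 3495 in shPGRN cells, 5064, 4165, 4447 and 4287 in hPGRN cells and 4488, 4657, 4717 and 4733 in Control cells. The shPGRN arrays were below all others, and the other lines overlapped. Mcm5 was lower than in Control cells by 0.34 ± 0.09 (1.27-fold, adjusted p = 0.0122) and lower than in hPGRN cells by 0.29 ± 0.09 (1.22-fold, adjusted p = 0.0341). The second call was lost without shPGRN replicate 2 or 4 or hPGRN replicate 1, 3 or 4 (adjusted p = 0.0524 to 0.124). Mcm7 averaged 364 ± 53.2, 414 ± 39.3 and 507 ± 123, with Control arrays spread from 364 to 658 and overlapping the shPGRN arrays. Its fall of 0.39 ± 0.13 against Control cells (1.31-fold, adjusted p = 0.0393) was lost without shPGRN replicate 1, 2 or 3 or Control replicate 1, 2 or 3 (adjusted p = 0.0552 to 0.165). This Mcm7 call was also lost under 4 processing alternatives (adjusted p = 0.0507 to 0.126). Of the 2 kept Mcm7 probes, with differences of -0.42 and -0.39, 1 passed. Mcm2, Mcm3, Mcm4, Cdc6 and Cdt1 did not pass in any comparison, with differences between -0.17 and 0.05. Gmnn (geminin, the inhibitor of Cdt1) and Orc1, a subunit of the origin recognition complex, were above background on at most 3 arrays and were not tested.

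Of the 6 tested genes of the fork and of nucleotide supply, only Rrm2 and Tk1 passed in any comparison. In the 3 comparisons 1, 1 and 2 were called (16.7%, 16.7% and 33.3%, beside 13.8%, 6.78% and 13.4% of all genes). Rrm2, the small subunit of ribonucleotide reductase, read 506, 632, 538 and 578 in shPGRN cells, 529, 406, 373 and 408 in hPGRN cells and 538, 746, 813 and 607 in Control cells. The hPGRN arrays were below the Control arrays, by a narrow gap, and overlapped with shPGRN arrays at replicate 1. Rrm2 was lower in hPGRN than in Control cells by 0.57 ± 0.12 (1.49-fold, adjusted p = 0.00376), and it was higher in shPGRN than in hPGRN cells by 0.35 ± 0.12 (1.27-fold, adjusted p = 0.0496). The second call was lost without any of 7 arrays (shPGRN replicates 2, 3 and 4, hPGRN replicates 2, 3 and 4 and Control replicate 2), at adjusted p-values of 0.0505 to 0.147. In all, 3 Rrm2 probes were above background, and their differences between hPGRN and Control cells ran from -0.57 to -0.17, all negative, with only the brightest passing.

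Tk1, thymidine kinase of the salvage pathway, was higher in shPGRN cells. Its values were 1258, 1135, 1497 and 1309 in shPGRN cells, 1041, 931, 974 and 985 in hPGRN cells and 997, 981, 965 and 1110 in Control cells. No shPGRN array overlapped with either of the other lines. The rise was 0.33 ± 0.09 over Control cells (1.26-fold, adjusted p = 0.0177), lost without shPGRN replicate 3 or Control replicate 3 (adjusted p = 0.0526 to 0.0804), and 0.37 ± 0.09 over hPGRN cells (1.30-fold, adjusted p = 0.00827). Of 4 Tk1 probes only the brightest passed, and the call against hPGRN cells was lost when probes were averaged (adjusted p = 0.158). Rrm1, the large reductase subunit, Tyms, which makes thymidylate, and Rfc3, a subunit of the clamp loader, passed in no comparison, with differences between -0.27 and 0.03. Pcna, the sliding clamp, had 1 probe, close to background at 18.8 ± 10.6, 19.3 ± 6.01 and 18.3 ± 10.8.

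**Figure D3:**
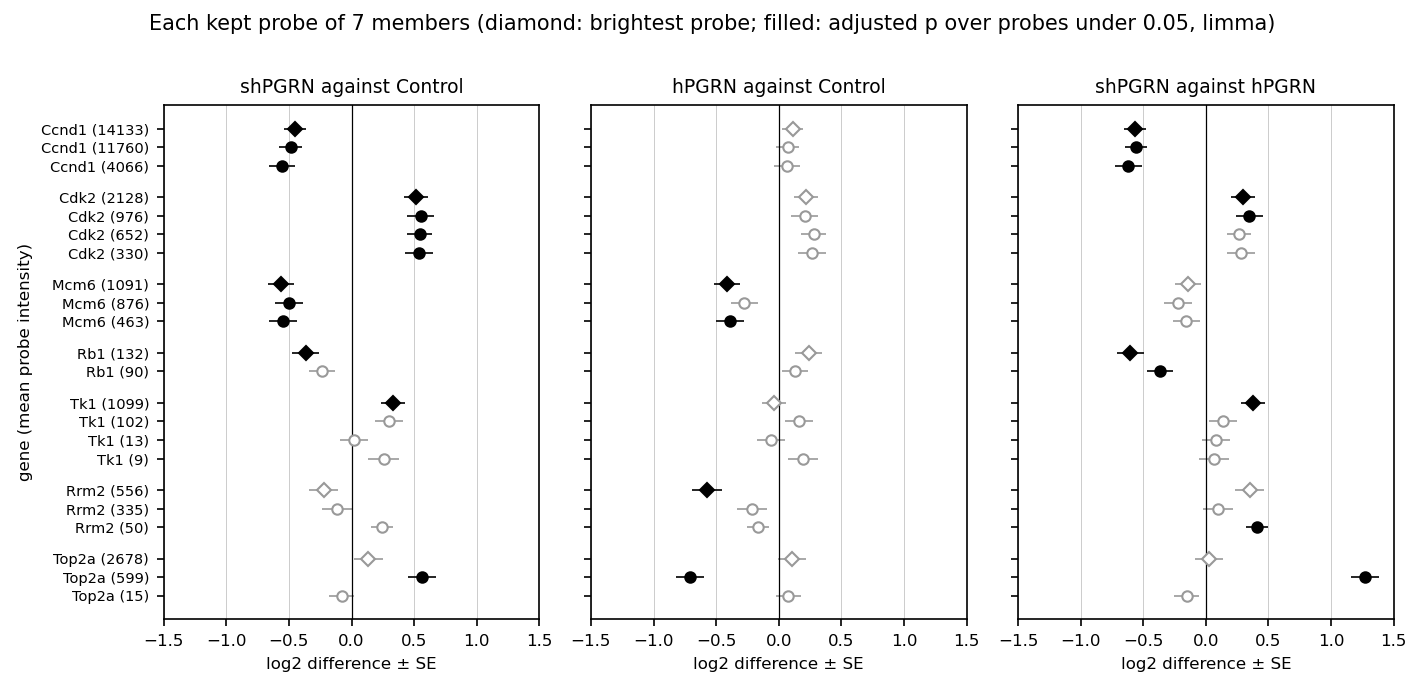
Log2 difference (points) with its standard error (bars) for every kept probe of 7 members in the 3 comparisons, with the mean intensity of the probe in parentheses; diamonds mark the brightest probe of a gene, and filled points an adjusted p under 0.05 over all probes. The probes of Ccnd1, Cdk2 and Mcm6 lie together, while the Top2a probe with a mean of 599 lies at 1.27 between shPGRN and hPGRN cells and the brightest Top2a probe at 0.03.

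On the probe that stands for each gene, mitosis genes passed in no comparison, as 0 of the 9 tested were called by limma in each of the 3, beside 13.8%, 6.78% and 13.4% of all genes. Another probe of Top2a did pass and is given below. At an unadjusted p under 0.05 the count was 1 of 9 between shPGRN and Control cells (Aurkb) and 0 in the other comparisons, beside 26.3%, 20.1% and 26.3% of all genes. Over the 3 comparisons their differences ran from -0.19 to 0.21. The highest was Bub1b, a spindle checkpoint kinase, in shPGRN against Control cells, and Aurkb, the chromosomal passenger kinase, had the lowest of that comparison. Several were well expressed, among them Cdc20, the activator of the anaphase-promoting complex, at 1816 ± 37.9, 1621 ± 52.0 and 1759 ± 136, and Aurka, the centrosome kinase, at 1501 ± 124, 1346 ± 75.6 and 1465 ± 143. Plk1, Mad2l1, Cdc25a and Cdc25c, which act at mitotic entry and in the checkpoint, were also tested without a call. Bub1 was above background on at most 1 array, and Mki67 had no annotated probe. Of the transcription factors Mybl2, Foxm1 and Myc, 0 of 3 passed in any comparison, and at an unadjusted p under 0.05 only Foxm1 did, between shPGRN and Control cells (-0.26). Mycn, the neuroblastoma oncogene, was above background on 1 array and was not tested.

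Top2a, topoisomerase IIa of S phase and mitosis, was read by 3 kept probes that differed from each other, a feature singled out after its values were seen. The brightest probe, which stands for the gene, averaged 2770 ± 161 in shPGRN cells, 2719 ± 225 in hPGRN cells and 2545 ± 459 in Control cells, and passed nowhere. A dimmer probe, annotated to another transcript record of the gene, read 916, 747, 911 and 988 in shPGRN cells, 371, 288, 264 and 391 in hPGRN cells and 499, 585, 618 and 615 in Control cells. On that probe no line overlapped with another. Its differences were 0.56 ± 0.11 between shPGRN and Control cells (adjusted p over all probes = 0.00157), -0.71 ± 0.11 between hPGRN and Control cells (0.000318) and 1.27 ± 0.11 between shPGRN and hPGRN cells (4.55e-08). The third probe was near background, at a mean of 14.8. With the probes of a gene averaged, Top2a was called higher in shPGRN than in hPGRN cells. Which of the probes follows the full transcript was not tested.

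Spread within a line was like that of other genes. For the 42 members above background on all 12 arrays, the median coefficient of variation was 11.2% in shPGRN cells, 9.95% in hPGRN cells and 12.9% in Control cells, beside 11.7%, 11.2% and 12.9% over the 8085 genes above background on all arrays. Members did not rank the arrays evenly, since Control replicate 2 was the highest of its line for 24 of 45 members and hPGRN replicate 2 the lowest of its line for 23 of 45. Control replicate 2 stood at a median of 108% of the line mean over the members and hPGRN replicate 2 at 94.6%. Without Control replicate 2 the count of members called between shPGRN and Control cells was 10 (9 of the 12, and Bub1b), and without hPGRN replicate 2 the count between hPGRN and Control cells was 2, with E2f3 in place of Mcm6. The part of these arrays in the differences between lines was otherwise not tested.

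A wider list of 153 cell cycle genes outside the set, of which 127 were tested, gave as a whole shares near those of all genes or lower, and the difference was not tested. Between shPGRN and Control cells 16 passed (12.6%, beside 13.8% of all genes, 4 higher and 12 lower), between hPGRN and Control cells 6 (4.72%, beside 6.78%, 3 higher and 3 lower), and between shPGRN and hPGRN cells 12 (9.45%, beside 13.4%, 5 higher and 7 lower). Its parts differed. The 21 further kinase regulators tested had shares of 23.8%, 9.52% and 19.0%. The 9 other E2F and partner genes had 22.2%, 11.1% and 22.2%. All remaining parts lay below the shares of all genes in each comparison.

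In each comparison with Control cells the largest difference of the wider list was that of a regulator of the kinases. Cdkn1a, the Cdk inhibitor p21, read 254, 346, 325 and 275 in shPGRN cells, 479, 455, 509 and 432 in hPGRN cells and 206, 195, 252 and 253 in Control cells. hPGRN arrays were above all others. Cdkn1a was higher in hPGRN than in Control cells by 0.86 ± 0.10 (1.82-fold, adjusted p = 6.31e-06) and lower in shPGRN than in hPGRN cells by 0.54 ± 0.10 (1.46-fold, adjusted p = 0.000608). Btg1, an antiproliferative gene, was also highest in hPGRN cells, at 2025 ± 108 beside 1648 ± 163 in shPGRN and 1208 ± 148 in Control cells, a rise of 0.72 in hPGRN cells (adjusted p = 6.1e-05) and of 0.43 in shPGRN cells (adjusted p = 0.00471) over Control cells. Cdkn3, a phosphatase that acts on Cdk2, fell in shPGRN cells by 0.74 against Control cells (1.67-fold, adjusted p = 3.59e-05), and by 0.44 against hPGRN cells (adjusted p = 0.00715). Ccng1, cyclin G1, fell by 0.52 in shPGRN cells against Control cells (adjusted p = 0.000786), and Mnat1, a subunit of the Cdk-activating kinase, was higher by 0.44 in shPGRN than in hPGRN cells (adjusted p = 0.00414). All these calls held without any single array. Cdkn1a and Fbxw7, which marks cyclin E for degradation, were also called higher in shPGRN than in Control cells. Whether these calls hold without single arrays was not tested. The brightest Cdkn1a probe passed there with a difference of 0.32 (limma, adjusted p over all probes = 0.0473). The dimmer Cdkn1a probes did not, at 0.08 and 0.31 (adjusted p over all probes = 0.76 and 0.0989).

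**Figure D4:**
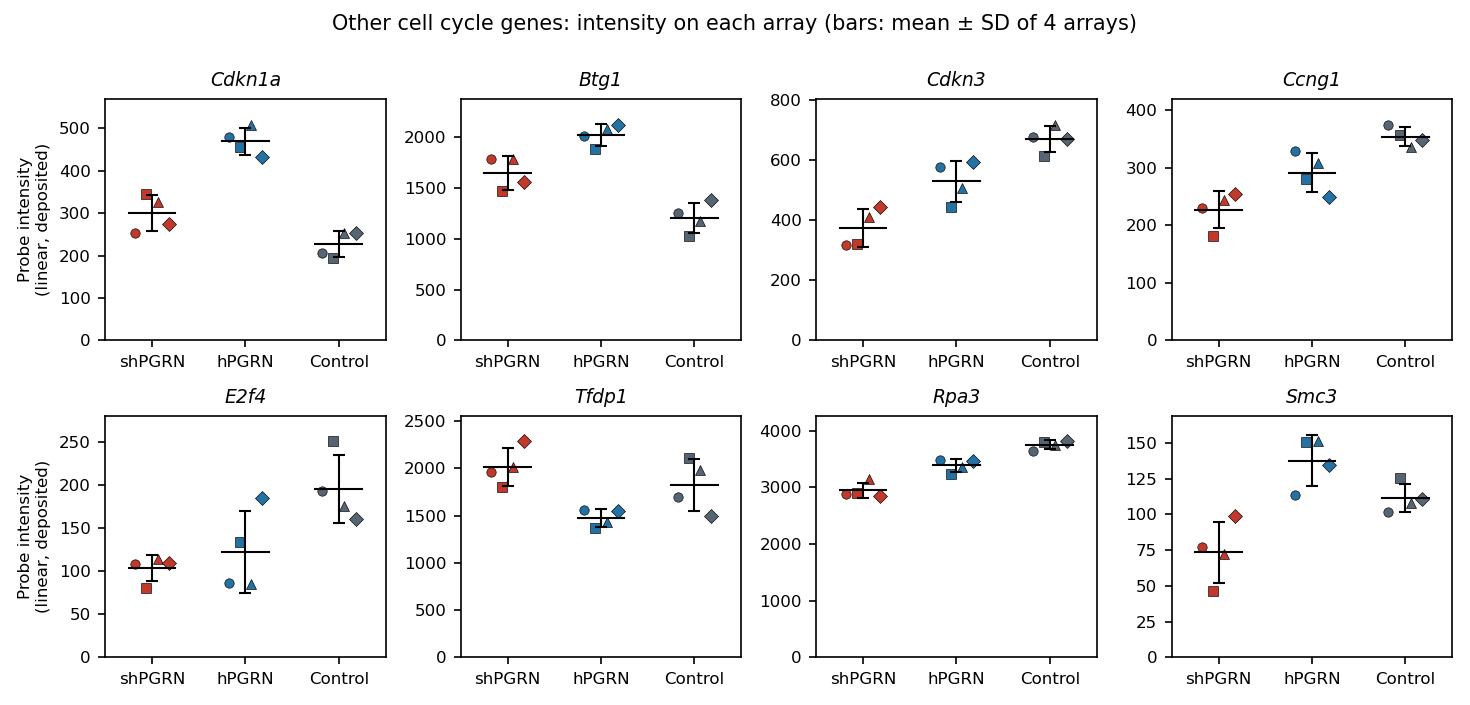
Intensity on each array (linear scale of the deposited table, axes from 0) for 8 cell cycle genes outside the set, by line; marker shapes give replicates 1 (circle), 2 (square), 3 (triangle) and 4 (diamond), and black bars the mean ± SD of 4 arrays. Cdkn1a is highest in hPGRN cells, where its arrays lie between 432 and 509, and Cdkn3 is lowest in shPGRN cells.

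Of the other E2F and partner genes, E2f4, a repressive E2F, was lower in both modified lines than in Control cells, by 0.60 in shPGRN cells (1.51-fold, adjusted p = 0.00365) and by 0.48 in hPGRN cells (adjusted p = 0.0327, lost without hPGRN replicate 1 or 3 or Control replicate 1, 2 or 3, up to 0.122). E2f5 fell by 0.44 in shPGRN cells against Control cells (adjusted p = 0.0146, lost without Control replicate 2 at 0.0641). Tfdp1, the DNA-binding partner of the E2F factors, was higher in shPGRN than in hPGRN cells by 0.43 (adjusted p = 0.00715), and E2f6, a Polycomb-linked repressor, was lower by 0.31 (adjusted p = 0.0181, lost without shPGRN replicate 2 or hPGRN replicate 2, up to 0.0612).

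Of 37 further replication genes, 5 were called between shPGRN and Control cells, all lower (Rpa3, Orc6, Tipin, Rfc5 and Rnaseh2a), a share of 13.5% that is close to the 13.8% of all genes. Rpa3, a subunit of the single-strand binding protein, fell by 0.34 (adjusted p = 0.00669), Orc6 of the origin recognition complex by 0.33 (adjusted p = 0.0151, lost without shPGRN replicate 2 or Control replicate 4, up to 0.0511) and Tipin, a fork protection gene, by 0.33 (adjusted p = 0.0161, lost without shPGRN replicate 2 or Control replicate 3, up to 0.0614). The Tipin call was also lost when probes were averaged (adjusted p = 0.224). Orc6 and Gins2, a helicase cofactor, were lower in hPGRN than in Control cells by 0.31 and 0.39 (adjusted p = 0.0344 and 0.0396), and these calls were lost without any hPGRN replicate or Control replicates 3 or 4, and for Gins2 also without Control replicate 1 (up to 0.132). Lig1, the replicative DNA ligase, was lower by 0.36 in shPGRN than in hPGRN cells (adjusted p = 0.0141, lost without hPGRN replicate 4 at 0.0673).

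Among spindle and kinetochore genes, Bub3, a checkpoint protein, was higher in shPGRN cells than in Control cells by 0.36 (adjusted p = 0.00799, lost at 0.137 when probes were averaged) and than in hPGRN cells by 0.30 (adjusted p = 0.0247, lost without 5 of the arrays of these lines, namely shPGRN replicates 1 and 2 and hPGRN replicates 1, 2 and 4). Spc24, a kinetochore subunit, was lower than in Control cells by 0.45 (adjusted p = 0.029, lost without shPGRN replicate 1 or 4 or Control replicate 4, up to 0.119), and Nusap1, a spindle protein, was lower than in hPGRN cells by 0.38 (adjusted p = 0.0306, lost without shPGRN replicate 1 or 2 or hPGRN replicate 1 or 4, up to 0.118). The Nusap1 call was also lost under 4 processing alternatives, the averaging of probes among them, at adjusted p-values up to 0.578. No gene of this list was called between hPGRN and Control cells by limma, where 6 of 25 had an unadjusted p under 0.05, beside 20.1% of all genes. The cohesin gene Smc3 was lower in shPGRN than in hPGRN cells by 0.53 (1.45-fold, adjusted p = 0.00109) and than in Control cells by 0.34 (adjusted p = 0.0286, lost without shPGRN replicate 2 or 3 or Control replicate 2 or 3, up to 0.119). Smc1a, its partner, was lower than in hPGRN cells by 0.29 (adjusted p = 0.044, lost without any of 8 arrays). Of 20 genes tested of cohesin, condensin and the anaphase-promoting complex, 2, 1 and 2 were called in the 3 comparisons. These shares are 10.0%, 5.0% and 10.0%, beside 13.8%, 6.78% and 13.4% of all genes. The anaphase-promoting complex genes Cdc16 and Cdc23 were among those called. Cdc16 was lower in shPGRN than in Control cells by 0.33 (adjusted p = 0.0187, lost without shPGRN replicate 2 or Control replicate 3, up to 0.0759), and Cdc23 was higher in hPGRN than in Control cells by 0.48 (adjusted p = 0.00709). Of 15 Myc partners and targets, only Cad, the first enzyme of pyrimidine synthesis, passed, and it was higher by 0.62 in shPGRN than in hPGRN cells (1.54-fold, adjusted p = 0.00725, lost at 0.071 with values raised to the background limit). That is 6.67% of the list, beside 13.4% of all genes called in that comparison. No gene of that list passed against Control cells by limma, where 2 of 15 in shPGRN cells and 1 of 15 in hPGRN cells had an unadjusted p under 0.05, beside 26.3% and 20.1% of all genes.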

How the data were processed

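Illumina MouseWG-6 v2 BeadChip intensities of 12 arrays were taken from the table deposited by the authors, whose values are linear probe intensities, already background-subtracted (31.7% to 31.8% of values lie below 0) and with nearly equal distributions across arrays. The study names lumi normalization and an empirical Bayes test in FlexArray, and which of these steps made the table is unstated. A second deposited table with 24 columns of per-sample values (signals and detection p-values) was not used, because its column names match no sample.

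In R 4.3.3 with limma 3.58.1, intensities were corrected by normexp with an offset of 50, quantile-normalized and log2-transformed. The background limit of an array was derived from the values below its mode, so that 0.05 of background values would exceed it, and a probe was kept where it exceeded the limit on at least 4 of 12 arrays. Where several probes of a gene were kept, the brightest was used. Of 45281 probes, 34885 had 1 gene symbol, 18 several and 10378 none, and only the first were named. A mean per line was fitted over all 12 arrays with empirical Bayes moderation, and p-values were adjusted by the Benjamini-Hochberg method over 11478 genes within each comparison (3 comparisons, adjusted p under 0.05). The fit was tested on simulated data. No 2 arrays were identical. The number of arrays limits the precision.

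Values on every array are given for members that passed and whose lines did not overlap, up to 3 genes of each further list with the smallest adjusted p under 0.05 per comparison are named, and the promoters of at most 4 members that passed in most comparisons and hold the E2F or TTTGAA letters are printed. Members and lists were chosen with earlier results of these data known. The alternatives were another offset, a floor at the background limit, other scalings and filters, other uses of a gene's probes, the 2 lines alone, array weights, a variance trend, a replicate block and each array left out in turn. The sources used here do not say which BeadChip held which sample. Replicate numbers were not taken as pairs.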

Additional observations from a re-analysis of the deposited data

Results flagged for a closer look

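In 3 of 135 sets of 4 arrays (45 members in 3 lines, 2.22%) a single array stood apart from the other 3 of its line by more than the 95% critical value of Dixon's test, where chance gives about 1 in 20. Ccne1 read 33.0 on shPGRN replicate 2 and 56.8 to 58.9 on the other arrays of that line, and the call of Ccne1 against Control cells was lost without this array. Cdk2 read 2076 on Control replicate 2 and 1647 to 1706 on the other Control arrays, and its call between shPGRN and Control cells held without it. Aurka read 1459 on hPGRN replicate 1 and 1301 to 1313 on the others, and passed in no comparison.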

How the results depend on the processing

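Of 21 calls of members, 7 held under all 12 processing alternatives and without any single array, namely Ccnd1 in both comparisons of shPGRN cells, Cdk2, Mcm5 and Mcm6 between shPGRN and Control cells, Rb1 between the modified lines and Rrm2 between hPGRN and Control cells. With values raised to the background limit and no offset, the members called were 6 (shPGRN against Control), 1 (hPGRN against Control) and 4 (shPGRN against hPGRN), in place of 12, 2 and 7, and the genes called between hPGRN and Control cells were 496 in place of 778. With an offset of 16 the last member count was 4, and with no filter on dim probes 3. With the probes of a gene averaged it was 9, with Cdk4, Mcm7 and Top2a added and Tk1 lost. A minimum of 1.5-fold left 0, 0 and 1 members and 278, 115 and 273 genes. Leaving out each array in turn gave 6 to 11, 2 to 3 and 3 to 7 members, and 1273 to 1572, 503 to 843 and 1173 to 1694 genes. The genes called between hPGRN and Control cells were 504 without hPGRN replicate 4 and 503 without Control replicate 3. With the replicate number as a block the counts were 11, 2 and 5 members and 1464, 677 and 1423 genes, and samples with the same number correlated at -0.157 to 0.128 after removal of line means (12 pairs), so the numbers were not read as pairs. No called direction reversed. Differences that had not passed and changed sign were Ccne1 between the modified lines (0.0334 with array weights, 0.0216 without shPGRN replicate 2, 0.0540 without hPGRN replicate 1, range -0.143 to 0.0540 without 1 array), Cdkn2d between hPGRN and Control cells (-0.00499 without hPGRN replicate 2, -0.0555 without Control replicate 2, range -0.0555 to 0.0674) and Tk1 in that comparison (0.0617 with probes averaged, 0.00112 without Control replicate 4, range -0.0667 to 0.00112). The cause of these changes was not tested. Ccna2, Pcna and Rbl2 were not above background on every array, which limits their values.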

Other observations

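Among members of S phase and later, Pcna and Ccna2 had 1 probe each, above background on 9 and 6 of 12 arrays, and Ccnb2 was above background on 0, while Cdk1, Top2a, Aurka and Cdc20 were above background on all 12 arrays. Levels of different probes cannot be compared as amounts of RNA.

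The dimmest kept Rrm2 probe differed in direction from the brightest between shPGRN and Control cells, at 0.24 and -0.22, and neither passed (limma, adjusted p over all probes = 0.0863 and 0.262). That dim probe passed between shPGRN and hPGRN cells with a difference of 0.41 (adjusted p over all probes = 0.00345). Both were singled out after their values were seen.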
